A study of Mus musculus with 8 samples.

Results

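The 31 genes described here make, sense and move cholesterol. They were taken as a list of sterol synthesis, sensing, uptake and efflux genes, chosen with earlier results of these data known. Of these, 29 had a probe set that the platform annotation gives to that gene alone, out of 18193 genes so measured, and Acat2 and Nr1h2 had none. Where a gene had several probe sets, the brightest over all 8 arrays stood for it. The 29 genes comprise 18 of sterol synthesis, 5 of sterol sensing and 6 of uptake, intracellular traffic and efflux. RNA came from mouse skin cells sorted as positive for keratin 15-GFP and α6-integrin. Among these, cells without CD34 made up the hair germ samples, from the small cluster at the follicle base where a new hair starts. Cells with CD34 made up the bulge samples, from the niche of long-lived stem cells. The 4 groups, with 2 arrays each, were Runx1 iTG hair germ, WT hair germ, Runx1 iTG bulge and WT bulge. Runx1 iTG mice carry a Tet-on Runx1 transgene, and WT mice served as controls. Every mouse, WT included, had 1 day of food that held 1 g doxycycline per kg, and the treatment record gives repression of H2BGFP as its purpose. Skin was in telogen, when follicles rest, at postnatal day 20, or at day 21 for replicate 2 of both transgenic groups. The strain, the promoter that drives the transgene, the number of animals behind a sample and whether bulge and hair germ of one replicate number share an animal are not given in the sources used here.

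Cholesterol is built from acetyl-CoA through mevalonate and the isoprenoids to squalene, which is closed to lanosterol and then trimmed and reduced to cholesterol. When membranes of the endoplasmic reticulum run low in sterol, the escort protein SCAP carries SREBP2 to the Golgi, where it is cut and released to switch on the synthesis genes, and INSIG proteins hold the complex back when sterol is plentiful. When sterol accumulates, oxysterols activate the LXR receptors, which raise the exporters ABCA1 and ABCG1. In skin, sterol synthesis serves the permeability barrier of the epidermis and the lipid secretion of the sebaceous gland.

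Signals are the deposited intensities after scaling each array to a common 75th percentile, and differences are on the log2 scale from limma over all 8 arrays, with n = 2 arrays per group. A gene passed at an adjusted p under 0.05 (Benjamini-Hochberg, over all 18193 genes). Signals of different genes come from different probes and are not compared with each other. Median intensities of the 8 arrays as deposited ranged over 101.7 to 162. Of the sterol genes, 28 lay above a background signal of 31.1 on every array, and Nr1h3 lay below it on 1 array. Runx1 was 25.4-fold higher in iTG than in WT hair germ (adjusted p = 8.46e-05) and 21.2-fold higher in iTG than in WT bulge (adjusted p = 0.000147). Cd34 averaged 7.1 in hair germ, which is below background, and 7604 in bulge. Itga6 averaged 6107 in hair germ and 6347 in bulge. Krt15 was lower in hair germ, at 16695 against 31048 in bulge (-0.90, limma, adjusted p = 0.00372). By Xist and 3 Y-linked genes, replicate 1 was male and replicate 2 female in all 4 groups, so the spread between replicates includes sex. The labels call the samples biological replicates, and the p-values rest on the spread between them. Values of bulk samples do not separate fewer cells of a type from less RNA per cell.

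Set against bulge, hair germ had higher signals of most sterol genes. Averaged over both genotypes, 18 of the 29 genes were higher and 1, Dhcr7, lower in hair germ, where 9.17% of all genes passed as higher and 9.11% as lower (18.3% either way). The median difference was 1.17 over the 29 genes and -0.091 over all genes. By class, 13 of 18 synthesis genes rose and 1 fell (median 1.35), 3 of 5 sensing genes rose (median 1.14), and 2 of 6 transport genes rose (median -0.12). All 4 hair germ arrays lay above all 4 bulge arrays for 16 of the 29 genes, which held for 10.8% of all genes, and below them for 2, which held for 11.6% of all genes. In iTG mice alone 12 genes rose and 1 fell, against 4.5% and 5.26% of all genes (9.76% either way). In WT mice alone 3 rose and 0 fell, against 3.14% and 3.79% (6.93% either way). There 17 of the 29 had an unadjusted p under 0.05 (limma) in either direction, against 3830 of all 18193 genes. Sc5d, Dhcr7 and Stard4 were the lower ones among them. The iTG hair germ arrays lay wholly above the iTG bulge arrays for 20 genes and wholly below for 4, against 23.9% and 27.6% of all genes. For WT these counts were 18 and 5, against 23% and 28.8% of all genes. No gene of the 29 passed the test of a difference between the genotypes in its hair germ to bulge difference (interaction, limma, 0 of 29 and 0% of all genes). In that test 5 of the 29 had an unadjusted p under 0.05, against 839 of all 18193 genes. The unequal counts thus do not show a difference between iTG and WT mice.

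**Figure D1:**
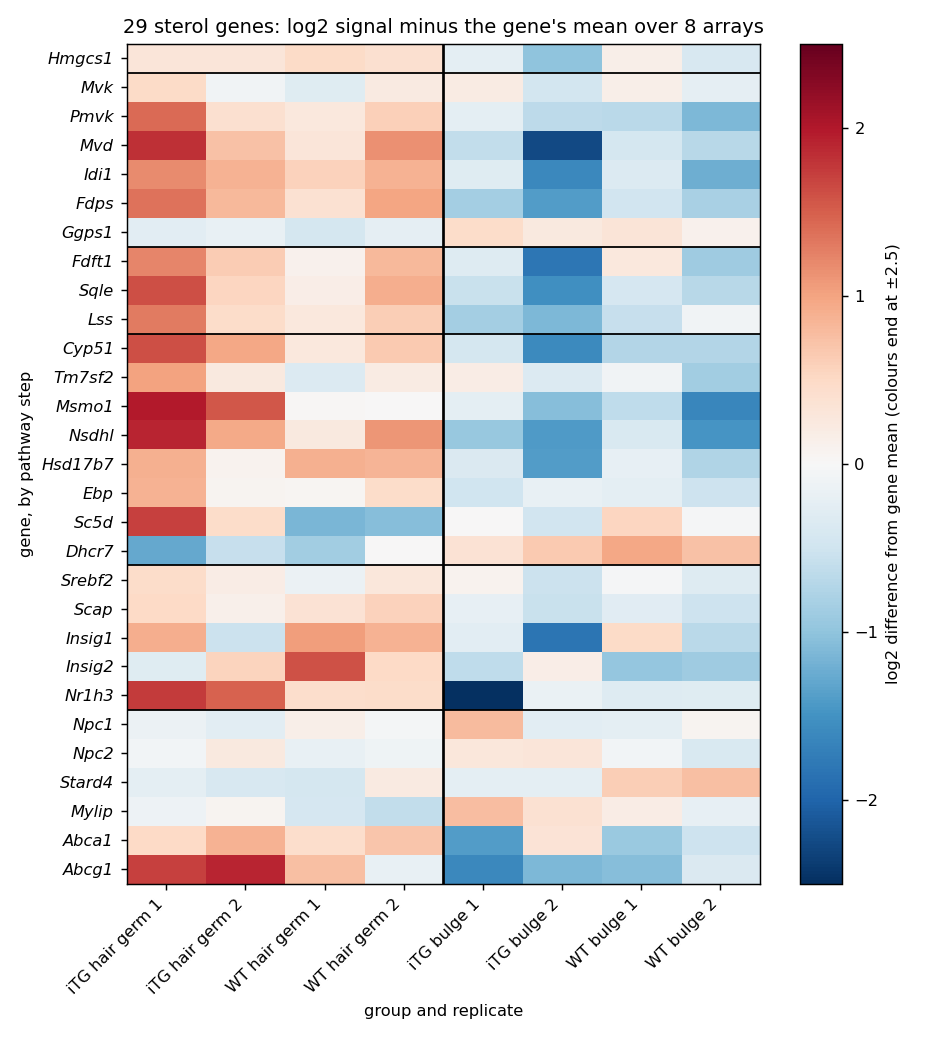
Heat map of 29 sterol genes (rows, by pathway step) over 8 arrays (columns, the 4 hair germ arrays left of the 4 bulge arrays), coloured by the log2 signal minus the gene's mean over the 8 arrays. Most synthesis genes are red in hair germ and blue in bulge, Dhcr7 and Ggps1 run the other way, and Nr1h3 in iTG bulge replicate 1 lies beyond the end of the colour scale.

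At the head of the pathway, Hmgcs1 encodes the HMG-CoA synthase that joins acetyl-CoA and acetoacetyl-CoA. Its signals were 14117 and 14177 in iTG hair germ, against 9687 and 5674 in iTG bulge, and 15904 and 15171 in WT hair germ, against 12709 and 8674 in WT bulge. Every hair germ array was brighter than every bulge array. It rose 1.68-fold on average (0.75, SE 0.20, adjusted p = 0.0277), with 0.93 in iTG (adjusted p = 0.0705) and 0.56 in WT (adjusted p = 0.298) alone. The other 4 probe sets of Hmgcs1, dimmer than this one, gave larger average differences of 1.12 to 1.92. Alone, iTG gave 1.25 to 2.18 and WT 0.98 to 1.72. In a limma fit over all probe sets the dimmest did not pass (adjusted p = 0.16 in iTG and 0.308 in WT). The rest of these 4 passed in each genotype (adjusted p up to 0.0096 in iTG and 0.038 in WT). With the brightest probe set, leaving out iTG bulge replicate 1 or WT bulge replicate 1 kept the average call. Leaving out any of the other 6 arrays ended it (adjusted p up to 0.117).

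Of the 6 enzymes that turn mevalonate into isoprenoids, 4 rose in hair germ. Pmvk, phosphomevalonate kinase, had signals of 6948 and 3419.9 in iTG hair germ, against 2190.1 and 1653 in iTG bulge, and 3103 and 3889 in WT hair germ, against 1631 and 1196 in WT bulge. The groups did not overlap in either genotype, and the average difference was 1.34 (SE 0.24, adjusted p = 0.00387). It passed in iTG (1.36, adjusted p = 0.0332) and in WT (1.31, adjusted p = 0.0474). Both of these calls were lost with quantile normalization and without an intensity trend, and neither held whichever array was left out. With 1 array left out, Pmvk differed by 0.85 to 1.87 in iTG and by 1.09 to 1.54 in WT. Mvd, the decarboxylase that yields isopentenyl diphosphate, stood at 2316 and 1075 in iTG hair germ, against 427 and 135 in iTG bulge, and 807 and 1434 in WT hair germ, against 477 and 402 in WT bulge. Its lowest value was that of iTG bulge replicate 2, no bulge array reached a hair germ array, and the average difference was 2.005 (SE 0.39, adjusted p = 0.00587). Within genotypes Mvd differed by 2.71 in iTG (adjusted p = 0.0133) and 1.29 in WT (adjusted p = 0.212).

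Idi1 isomerises isopentenyl diphosphate, and its signals were 8488 and 6753 in iTG hair germ, against 3001 and 1219.6 in iTG bulge, and 5509 and 6778 in WT hair germ, against 2919 and 1604 in WT bulge. Bulge replicate 2 was the dimmer one in both genotypes, and all hair germ arrays were brighter. The average difference was 1.74 (SE 0.29, adjusted p = 0.00263), with 1.98 in iTG (adjusted p = 0.0147) and 1.498 in WT (adjusted p = 0.0604). Fdps makes farnesyl diphosphate, the branch point between sterols and other isoprenoids. It had 4540.4 and 3144 in iTG hair germ, against 989.5 and 673 in iTG bulge, and 2315 and 3548 in WT hair germ, against 1283 and 1016 in WT bulge. This was a 3.41-fold average rise (1.77, SE 0.22, adjusted p = 0.000469), the smallest adjusted p among the 29 genes, and it passed in iTG (2.21, adjusted p = 0.00216) and in WT (1.33, adjusted p = 0.032). Mvk, mevalonate kinase, did not separate the populations (0.16, adjusted p = 0.727). Ggps1, which sends farnesyl diphosphate to protein prenylation rather than to sterols, was the 1 enzyme of this stretch with a lower mean in hair germ, and it did not pass (-0.56, adjusted p = 0.0972).

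All 3 enzymes from farnesyl diphosphate to lanosterol rose. Fdft1, squalene synthase and the first step committed to sterols, had signals of 6512 and 4367 in iTG hair germ, against 2239.9 and 797 in iTG bulge, and 2994 and 4895 in WT hair germ, against 3347 and 1503 in WT bulge. WT overlapped between the populations, since WT bulge replicate 1 exceeded WT hair germ replicate 1. The average difference was 1.38 (SE 0.36, adjusted p = 0.0246), and it passed in iTG (1.996, adjusted p = 0.0361) but not in WT (0.77, adjusted p = 0.443). Of its 3 other probe sets, the bright one differed by 1.20 and the dim ones by -1.39 and 1.17. Sqle, squalene epoxidase, stood at 4514 and 2141 in iTG hair germ, against 999 and 507 in iTG bulge, and 1668 and 2762 in WT hair germ, against 1106 and 909 in WT bulge. It was higher in hair germ without overlap, by 1.61 (SE 0.30, adjusted p = 0.00485) on average, 2.13 in iTG (adjusted p = 0.0126) and 1.10 in WT (adjusted p = 0.17). Lss closes the ring to lanosterol. Its signals were 8529 and 4766 in iTG hair germ, against 1916 and 1577 in iTG bulge, and 4134 and 5308 in WT hair germ, against 2303 and 3269 in WT bulge, again without overlap. The average difference was 1.32 (SE 0.22, adjusted p = 0.00247), with 1.87 in iTG (adjusted p = 0.00465) and 0.77 in WT (adjusted p = 0.183), and its 2 other probe sets gave 1.30 and 1.37.

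Of the 8 genes from lanosterol to cholesterol, 5 rose, 1 fell and 2 did not pass. Cyp51 encodes the cytochrome P450 that removes the first methyl group of lanosterol, and its signals were 9452 and 6034 in iTG hair germ, against 2294 and 1025 in iTG bulge, and 3756 and 4887 in WT hair germ, against 1883 and 1876 in WT bulge. It rose 3.35-fold on average (1.74, SE 0.26, adjusted p = 0.00137) and by 2.30 in iTG (adjusted p = 0.00391). In WT it differed by 1.19 without passing (adjusted p = 0.0895). The next 3 genes encode the complex that strips the remaining methyl groups. Msmo1, the methylsterol oxidase, had 6015 and 4487 in iTG hair germ, against 1281 and 726 in iTG bulge, and 1566 and 1541 in WT hair germ, against 978 and 496 in WT bulge. The iTG hair germ arrays stood far above all others, and the average rise was 3.47-fold (1.79, SE 0.26, adjusted p = 0.0012). Msmo1 differed by 2.43 in iTG (adjusted p = 0.00312) and 1.16 in WT (adjusted p = 0.0982). Its second, dimmer probe set gave 1.21 in iTG and -0.14 in WT. Nsdhl, the sterol dehydrogenase, lies on the X chromosome and stood at 5404 and 2792 in iTG hair germ, against 751 and 543 in iTG bulge, and 1716 and 3082 in WT hair germ, against 1113 and 517 in WT bulge. It showed the largest average difference of the 29 genes (2.10, SE 0.32, adjusted p = 0.00149), with 2.60 in iTG (adjusted p = 0.00566) and 1.60 in WT (adjusted p = 0.0642).

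Hsd17b7, the ketoreductase of the same complex, had signals of 2504 and 1443 in iTG hair germ, against 1059 and 514 in iTG bulge, and 2529 and 2431 in WT hair germ, against 1179 and 808 in WT bulge. The average difference was 1.36 (SE 0.27, adjusted p = 0.00697). With this probe set neither genotype alone passed, at 1.37 in iTG (adjusted p = 0.0533) and 1.35 in WT (adjusted p = 0.0703). Its other probe sets gave 0.76 to 1.90 in iTG and -0.41 to 1.85 in WT. In a limma fit over all probe sets the 1.85 in WT passed (adjusted p = 0.0325), and the others in WT did not. In iTG a set that differed by 1.78 passed in that fit (adjusted p = 0.0342). Ebp, the sterol isomerase and also X-linked, stood at 1969.8 and 1135 in iTG hair germ, against 759.6 and 941 in iTG bulge, and 1117 and 1480.2 in WT hair germ, against 913 and 752 in WT bulge. Its rise was modest (0.73, SE 0.22, adjusted p = 0.048) and no longer passed after leaving out any array but iTG hair germ replicate 2 (adjusted p up to 0.172). It also did not pass with quantile normalization, without rescaling, without an intensity trend, with day 20 arrays only or with the replicate block, which here is also a block for sex. Tm7sf2, a sterol reductase, did not pass (0.56, adjusted p = 0.252).

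The last 2 steps ran differently. Dhcr7 encodes the reductase that yields cholesterol from its direct precursor, which is also the skin's precursor of vitamin D. Its signals were 729.7 and 1179 in iTG hair germ, against 2282 and 2790.3 in iTG bulge, and 968 and 1785 in WT hair germ, against 3448 and 2935 in WT bulge. Every hair germ array was dimmer than every bulge array, and Dhcr7 fell 2.57-fold on average (-1.36, SE 0.24, adjusted p = 0.00331), with -1.44 in iTG (adjusted p = 0.0243) and -1.28 in WT (adjusted p = 0.0514). Sc5d encodes the desaturase one step earlier. It stood at 1599 and 667 in iTG hair germ, against 491 and 348 in iTG bulge, and 222 and 233 in WT hair germ, against 712 and 477 in WT bulge. Hair germ was brighter than bulge in iTG (1.32, adjusted p = 0.091) and dimmer in WT (-1.36, adjusted p = 0.099), and the average difference was -0.018 (adjusted p = 0.978). None of these Sc5d differences passed. Its 2 dimmer probe sets had the same signs, at 0.66 and 0.94 in iTG and -2.43 and -2.02 in WT. In a limma fit over all probe sets the -2.43 passed (adjusted p = 0.0243) and the -2.02 did not (adjusted p = 0.137).

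Among the 11 synthesis genes above whose average call held whichever array was left out, Dhcr7 was the 1 lower in hair germ. Fdft1 was lost in 4 of these 8 fits, without iTG bulge replicate 2, WT bulge replicate 2, iTG hair germ replicate 1 or WT hair germ replicate 2 (adjusted p up to 0.12), and with the mean of its probe sets. Without an intensity trend in the fit 8 of the 19 average calls were lost, those of Hmgcs1, Fdft1, Hsd17b7, Ebp, Scap, Insig2, Nr1h3 and Abca1. The number of the 29 genes past the threshold fell to 12 without WT bulge replicate 2, against 19 with all arrays. In iTG alone it was 4 without hair germ replicate 1 and 6 without bulge replicate 2, against 13, and Abcg1, Fdps and Msmo1 passed whichever array was left out. In WT alone it was 0 without hair germ replicate 1 or either bulge replicate, 1 without hair germ replicate 2 and 6 without either iTG bulge array, against 3. Within the male arrays 15 of 18 synthesis genes were higher in hair germ (median 1.19), and within the female arrays 15 of 18 (median 1.46).

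**Figure D2:**
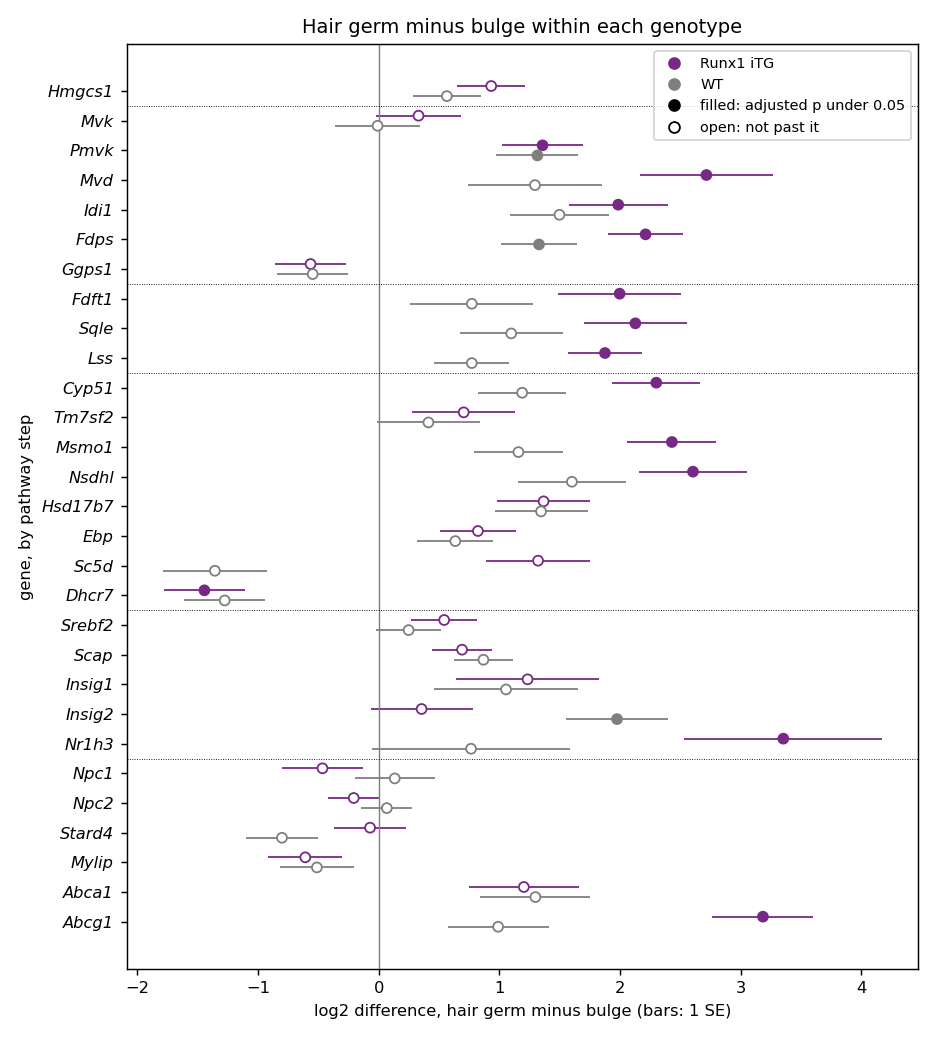
Hair germ minus bulge difference (log2, x axis) of 29 sterol genes in Runx1 iTG (purple, upper) and WT mice (grey, lower), with bars of 1 SE and filled symbols for an adjusted p under 0.05. Most synthesis genes lie right of 0 in both genotypes, Dhcr7 and Ggps1 lie left of it, and Sc5d lies at 1.32 in iTG and -1.36 in WT.

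The promoters of the sterol genes were also read for letters bound by known transcription factors. RefSeq promoter windows (GRCm38.p6, 250 bases before to 50 after the start of a gene) were at hand for 23 of the 29 genes, with Abcg1, Fdft1, Fdps, Npc1, Sqle and Stard4 not matched. The inverted CCAAT box, ATTGG on either strand, is bound by NF-Y, a partner of SREBP2. It was held by 20 of the 23 genes (87.0%) and all 15 synthesis genes, against 41.1% of all 27025 genes with a window. Dhcr7, which fell in hair germ on average, and Ggps1, Mvk, Tm7sf2 and Sc5d, which did not pass, held it too. TCACCCCAC, 1 spelling of the sterol regulatory element, was found in Hmgcs1 alone, against 0.614% of all genes. The RUNX letters TGTGGT were found in 1 of 23 and TGCGGT in 2 of 23, against 18.9% and 7.34% of all genes. CACGTG, the E-box, was in 6 of 23, against 8.09%, and AGGTCA, letters read by LXR and other nuclear receptors, in 3 of 23, against 18.1%. The shorter TCACCCCA, which lies within the spelling above, was in Hmgcs1 and Srebf2 (1.77% of all genes), and TCACNCCAC in Hmgcs1 (1.44%). Other spellings of the element were not searched, so a gene without a match may still hold one. These are matches of letters in a window and not binding sites, and their part in the differences was not tested. The 250 bases before the start are shown for Hmgcs1, the 1 gene of the 23 with TCACCCCAC, for Nsdhl and Cyp51, which rose in hair germ, and for Sc5d, which had the smallest p between genotypes there. Capitals mark ATTGG, or CCAAT where it lies on the other strand, and TCACCCCAC. Hmgcs1 spans chr13:119690101-119690350 on the plus strand, Nsdhl chrX:72918271-72918520 on the plus strand, Cyp51 chr5:4104698-4104947 on the minus strand and Sc5d chr9:42264301-42264550 on the minus strand.
Hmgcs1: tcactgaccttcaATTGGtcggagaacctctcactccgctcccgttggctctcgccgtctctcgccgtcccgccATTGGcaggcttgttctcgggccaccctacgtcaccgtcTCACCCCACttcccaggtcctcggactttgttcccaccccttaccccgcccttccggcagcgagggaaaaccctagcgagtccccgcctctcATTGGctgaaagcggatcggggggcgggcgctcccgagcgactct
Nsdhl: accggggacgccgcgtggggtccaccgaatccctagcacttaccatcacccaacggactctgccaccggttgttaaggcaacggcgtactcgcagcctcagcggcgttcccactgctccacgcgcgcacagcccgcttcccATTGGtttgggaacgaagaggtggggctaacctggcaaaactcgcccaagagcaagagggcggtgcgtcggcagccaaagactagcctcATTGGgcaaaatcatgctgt
Cyp51: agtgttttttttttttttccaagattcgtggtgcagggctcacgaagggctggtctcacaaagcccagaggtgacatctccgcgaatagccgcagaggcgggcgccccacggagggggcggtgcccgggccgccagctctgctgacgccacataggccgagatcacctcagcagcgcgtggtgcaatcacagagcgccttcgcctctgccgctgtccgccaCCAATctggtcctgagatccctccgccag
Sc5d: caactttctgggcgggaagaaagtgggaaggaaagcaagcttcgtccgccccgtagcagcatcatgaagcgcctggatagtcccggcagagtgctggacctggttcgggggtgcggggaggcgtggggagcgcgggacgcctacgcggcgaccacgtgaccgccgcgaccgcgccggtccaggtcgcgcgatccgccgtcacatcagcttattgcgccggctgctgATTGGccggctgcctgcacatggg
In Hmgcs1 TCACCCCAC begins 137 bases before the start, among 3 ATTGG copies, which begin 237, 176 and 45 bases before the start. Nsdhl has 2 copies, and Cyp51 and Sc5d have 1 each, beginning 29 and 24 bases before the start.

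Of the sterol sensors, 3 of 5 rose in hair germ. Scap, the escort of SREBP, had signals of 2286 and 1761 in iTG hair germ, against 1400.3 and 1103 in iTG bulge, and 2098 and 2419 in WT hair germ, against 1343 and 1136 in WT bulge. It was higher in hair germ without overlap (0.78, SE 0.18, adjusted p = 0.0124), with 0.69 in iTG (adjusted p = 0.121) and 0.87 in WT (adjusted p = 0.0697). Its call was lost without WT bulge replicate 2, iTG hair germ replicate 1 or WT hair germ replicate 2 (adjusted p up to 0.0586). Srebf2, which encodes SREBP2 itself, stood at 4758 and 3938 in iTG hair germ, against 3696 and 2389 in iTG bulge, and 3138 and 4203 in WT hair germ, against 3405 and 2747 in WT bulge. The difference did not pass (0.40, SE 0.19, adjusted p = 0.2). The retention proteins INSIG1 and INSIG2 had unlike patterns. Insig1, itself induced by SREBP, had 1844 and 671 in iTG hair germ, against 811 and 276 in iTG bulge, and 2024 and 1777 in WT hair germ, against 1365 and 611 in WT bulge. Bulge replicate 2 was dimmer than replicate 1 in both genotypes, and the difference did not pass (1.14, SE 0.42, adjusted p = 0.0916).

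Insig2 stood at 909 and 1655 in iTG hair germ, against 728 and 1262 in iTG bulge, and 3379 and 1596 in WT hair germ, against 577 and 605 in WT bulge. WT hair germ replicate 1 was the brightest array and the WT bulge arrays the dimmest, while the iTG groups overlapped. Insig2 rose in WT by 1.97 (SE 0.42, adjusted p = 0.0216) and differed by 0.36 in iTG (adjusted p = 0.686), with an average of 1.17 (adjusted p = 0.0232). The WT call was lost without either WT bulge array or WT hair germ replicate 1 (adjusted p up to 0.151). The average call was lost in 5 of 8 such fits, without WT hair germ replicate 1, iTG hair germ replicate 2, iTG bulge replicate 1 or either WT bulge array (adjusted p up to 0.086). Nr1h3 encodes LXRα. Its signals were 582 and 479 in iTG hair germ, against 17.4 and 154 in iTG bulge, and 233 and 238 in WT hair germ, against 138 and 139 in WT bulge. In iTG bulge replicate 1 it lay below background, so a difference that includes this array is uncertain in size. It rose on average by 2.06 (adjusted p = 0.0344) and in iTG by 3.35 (SE 0.82, adjusted p = 0.0303), against 0.77 in WT (adjusted p = 0.667). Without that array the iTG call was lost, and it ended likewise without any other array except iTG bulge replicate 2 (adjusted p up to 0.186). The average call of Nr1h3 was lost without either WT bulge array or any hair germ array (adjusted p up to 0.116).

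The exporters were the transport genes that rose. Abcg1 passes cholesterol to HDL particles, and its signals were 1227 and 1400.2 in iTG hair germ, against 122 and 171 in iTG bulge, and 627 and 329 in WT hair germ, against 179 and 291 in WT bulge. All hair germ arrays lay above all bulge arrays, and the iTG hair germ arrays stood highest. Abcg1 rose 4.25-fold on average (2.09, SE 0.30, adjusted p = 0.00105) and 9.08-fold in iTG (3.18, SE 0.42, adjusted p = 0.00152), and differed by 0.99 in WT (adjusted p = 0.21). The second, dimmer probe set of Abcg1 gave an average of 1.25, with 2.32 in iTG and 0.18 in WT. Abca1, which loads cholesterol onto apolipoprotein A-I, stood at 5338 and 6888 in iTG hair germ, against 1444 and 4806 in iTG bulge, and 5163 and 6142 in WT hair germ, against 1985 and 2640.5 in WT bulge. The iTG bulge replicates lay far apart, at 1444 and 4806, yet each hair germ array was brighter than each bulge array. Abca1 rose by 1.25 (SE 0.32, adjusted p = 0.0235), with 1.20 in iTG (adjusted p = 0.141) and 1.30 in WT (adjusted p = 0.13), and 2 other probe sets gave 1.31 and 1.35. The call was lost without either WT bulge array or any hair germ array (adjusted p up to 0.0976) and with quantile normalization.

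The other transport genes did not pass between populations. Npc1 and Npc2, which carry cholesterol out of the lysosome, differed by -0.17 (adjusted p = 0.697) and -0.07 (adjusted p = 0.811). Npc2 stood at 8863 and 11066 in iTG hair germ, against 11349 and 11506 in iTG bulge, and 8165 and 8618 in WT hair germ, against 8943 and 7165 in WT bulge, and the populations overlapped over all 8 arrays. Stard4, a cytosolic sterol carrier, stood at 576 and 520.2 in iTG hair germ, against 576 and 575 in iTG bulge, and 502 and 795 in WT hair germ, against 1051 and 1153 in WT bulge, with WT bulge brightest. It differed by -0.44 (adjusted p = 0.191) and in WT by -0.80 (adjusted p = 0.148). In WT its 2 other probe sets gave 0.21 and -0.20. Mylip encodes a ubiquitin ligase that removes lipoprotein receptors, and it differed by -0.56 (adjusted p = 0.106).

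Other probe sets of the same genes varied in size. On average over both genotypes the second set of Mvd gave 1.79, of Idi1 1.86, of Msmo1 0.53, of Scap 0.56 and of Srebf2 0.14. Those of Cyp51 gave 0.75 and 1.90, those of Insig2 0.39 and 0.91, and the 3 of Hsd17b7 ranged over 0.18 to 1.87. Those of Ggps1, all lower in hair germ, ranged over -0.88 to -0.63, and the second set of Fdps was below background. Of the 29 genes 10 had a single probe set, among them Dhcr7, Nsdhl, Pmvk, Sqle, Ebp and Nr1h3.

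Of further sterol genes, 48 measured of 56 listed, 8 rose and 3 fell in hair germ on average (median 0.28), where 9.17% of all genes were called higher and 9.11% lower. The 3 with the smallest p were Tmem97, a sterol-responsive membrane protein gene (2.71, adjusted p = 0.000113), Hsd17b12 (2.13, adjusted p = 0.000122), an enzyme of fatty acid elongation, and Pgrmc1 (1.26, adjusted p = 0.000474), a partner of sterol-modifying P450 enzymes. Of other lipid genes under SREBP or LXR control, 20 measured of 21 listed, 12 rose and 1 fell (median 1.34). The lists share genes, since Tmem97 is on both of these and Scd1 is also among the sebaceous gland markers below. Elovl6, a fatty acid elongase, differed by 3.14 (adjusted p = 5.71e-06), and Acss2, which makes acetyl-CoA from acetate, by 3.08 (adjusted p = 2.88e-05). Srebf1, which encodes the SREBP of fatty acid synthesis, had signals of 6422 and 6026 in iTG hair germ, against 903 and 766 in iTG bulge, and 5353 and 5612 in WT hair germ, against 1157 and 1158 in WT bulge (2.57, adjusted p = 6.78e-06).

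Markers of other cells moved with the same comparison. All 9 measured markers of sebaceous gland and upper follicle rose in hair germ, with summed signals of 60792 to 80144 on the 4 hair germ arrays and 9825 to 17213 on the 4 bulge arrays, and none was below background in all groups. The master regulator of sebocytes, Pparg, had signals of 4171 and 4079 in iTG hair germ, against 30.5 and 32.1 in iTG bulge, and 1069.8 and 2070.1 in WT hair germ, against 9.48 and 3.08 in WT bulge. Of these bulge values, only the 32.1 lay above the background of 31.1, so differences that include them are uncertain in size. The part of such cells in the sterol differences was not tested. Fibroblast markers, 7 measured, summed to 869 to 1772 in hair germ and 5992 to 10385 in bulge, with Lum below background in all groups. Differentiated epidermis markers, 5 measured, summed to 14255 to 24691 in hair germ and 29465 to 50162 in bulge. Of 8 macrophage and immune markers Ptprc, Aif1 and Cd207 were below background in all groups, and the sums were 645 to 826 in hair germ and 520 to 1082 in bulge. Endothelial markers, 4 measured with Kdr below background throughout, summed to 27.7 to 103 in hair germ and 123 to 271 in bulge. Melanocyte markers, 5 measured with Mlana and Tyr below background throughout, summed to 31.5 to 206 in hair germ and 89.3 to 429 in bulge. Such sums weigh bright genes most. Gene by gene, averaged over both genotypes, 1 of 7 fibroblast and 3 of 8 macrophage and immune markers lay higher in hair germ. No epidermis, endothelial or melanocyte marker did. Of all genes, 44.9% did.

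**Figure D3:**
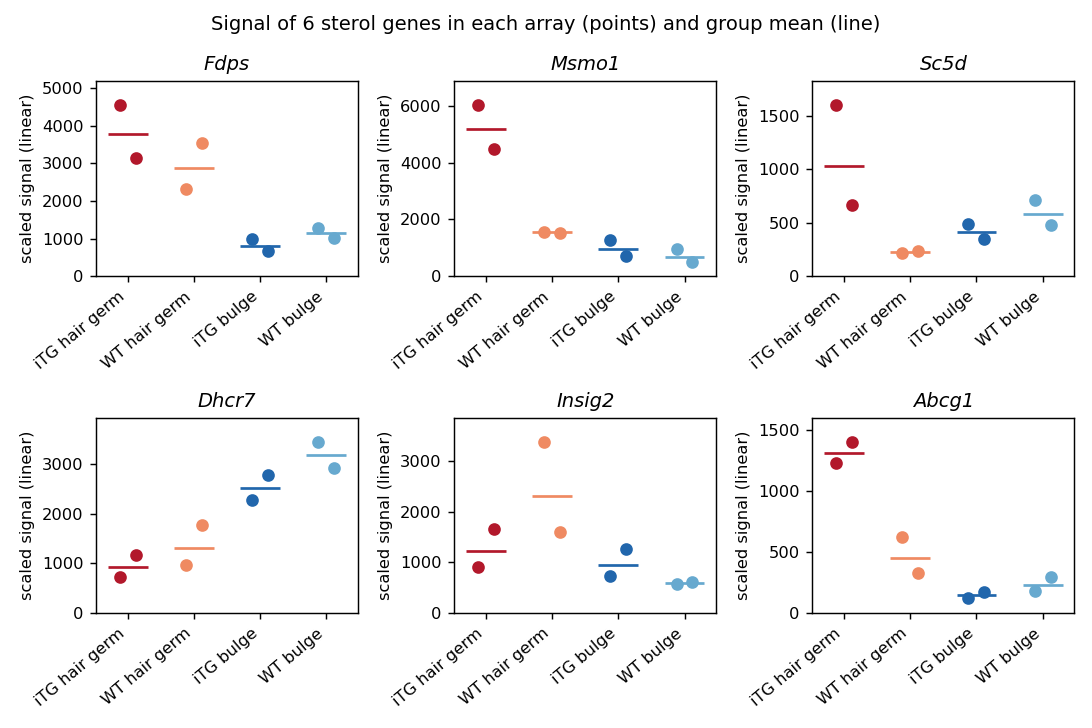
Scaled signal (linear y axis from 0) of 6 sterol genes in the 4 groups, with 1 point per array (replicate 1 left, replicate 2 right) and a line at the group mean on the log scale. Fdps, Msmo1 and Abcg1 are higher in hair germ than in bulge, Dhcr7 is lower, Sc5d is dimmest in WT hair germ, and Insig2 has its highest mean there.

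The design sets transgenic against WT samples, to follow what raised Runx1 does to these cells. None of the 29 genes passed in hair germ (limma, 4 at an unadjusted p under 0.05), where 0.0165% of all genes were higher and 0.011% lower (0.0275% either way). None passed in bulge (limma, 2 at an unadjusted p under 0.05), against 0.022% of all genes higher and 0% lower. None passed averaged over both (limma, 5 at an unadjusted p under 0.05), against 0.033% higher and 0.0165% lower (0.0495% either way). Of all 18193 genes, 1233 in hair germ, 1084 in bulge and 1456 averaged had an unadjusted p under 0.05 (limma). In hair germ 21 of the 29 genes lay higher in iTG than in WT (median 0.31), against 52.7% of all genes (median 0.030), and 15 of 18 synthesis genes did (median 0.46). Both iTG arrays exceeded both WT arrays for 8 of the 29 and lay below them for 2, against 19.9% and 15.8% of all genes. In bulge 11 of the 29 lay higher (median -0.25), against 52.0% of all genes (median 0.023), and 5 of 18 synthesis genes (median -0.31). There the iTG arrays lay wholly above WT for 4 and wholly below for 5, against 17.3% and 16.4% of all genes. The hair germ values depended on the replicate. Replicate 1, male, had 15 of 18 synthesis genes higher in iTG (median 1.08), and replicate 2, female, had 5 of 18 (median -0.16). In bulge 7 of 18 were higher in replicate 1 (median -0.16) and 6 of 18 in replicate 2 (median -0.43). The iTG arrays of replicate 2 are also those labelled day 21. Sebaceous and upper follicle markers summed to 73846 and 80144 in iTG hair germ, against 60792 and 74403 in WT hair germ, and to 15807 and 17213 in iTG bulge, against 9825 and 10601 in WT bulge. Of the 9 markers 7 lay higher in iTG in hair germ and 8 in bulge, 0 passed (limma, 1 and 5 at an unadjusted p under 0.05), and their part in the sterol values was not tested.

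The 3 genes with the smallest p in hair germ were Sc5d, Msmo1 and Abcg1. Sc5d had signals of 1599 and 667 in iTG hair germ, against 222 and 233 in WT hair germ. The groups did not overlap, and the difference of 2.18 (SE 0.43, 4.54-fold) missed the threshold (adjusted p = 0.21). It was 1.55 without iTG hair germ replicate 1 and 2.81 without iTG hair germ replicate 2. Both other probe sets of Sc5d ran the same way, at 2.25 and 2.52. Msmo1, which acts earlier on the methylsterols, stood at 6015 and 4487 in iTG hair germ, against 1566 and 1541 in WT hair germ. It differed by 1.74 (SE 0.37, 3.34-fold, adjusted p = 0.22), and its other probe set by 1.58. Abcg1 had 1227 and 1400.2 in iTG hair germ, against 627 and 329 in WT hair germ. The difference was 1.53 (SE 0.42, adjusted p = 0.425), with 2.87 for the second probe set, and 1.06 without WT hair germ replicate 2. Cyp51, at 9452 and 6034 in iTG hair germ, against 3756 and 4887 in WT hair germ, differed by 0.82 (adjusted p = 0.736). Hmgcs1, at 14117 and 14177 in iTG hair germ, against 15904 and 15171 in WT hair germ, was dimmer in both iTG arrays by little (-0.13, adjusted p = 0.989).

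In bulge the smallest p belonged to transport genes. Stard4 had signals of 576 and 575 in iTG bulge, against 1051 and 1153 in WT bulge. Both iTG arrays were dimmer (-0.94, SE 0.29, adjusted p = 0.699), but its 2 other probe sets gave -0.20 and 0.051. Npc2, the lysosomal sterol carrier, stood at 11349 and 11506 in iTG bulge, against 8943 and 7165 in WT bulge, higher in both iTG arrays (0.51, SE 0.21, adjusted p = 0.785). Abcg1 had 122 and 171 in iTG bulge, against 179 and 291 in WT bulge, dimmer in both iTG arrays (-0.66, SE 0.42, adjusted p = 0.919), whereas its second, dim probe set gave 0.72. In 4.6% of all genes, as in Abcg1, the genotypes did not overlap and ran opposite ways in hair germ and bulge. Hmgcs1 differed by -0.50 at 9687 and 5674 in iTG bulge, against 12709 and 8674 in WT bulge (adjusted p = 0.897), with overlap between the genotypes.

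Averaged over both populations, Msmo1 lay higher in iTG by 1.11 (SE 0.26, adjusted p = 0.244), and none of the 29 genes separated all 4 iTG from all 4 WT arrays, against 1.47% of all genes higher and 1.07% lower without overlap. Sc5d differed by 0.84 and Stard4 by -0.57 (adjusted p = 0.517 each). Npc2 differed by 0.38 (adjusted p = 0.565). Mylip, with signals of 480.4 and 549.8 in iTG hair germ, against 392 and 342 in WT hair germ, and 899.9 and 682 in iTG bulge, against 598 and 457 in WT bulge, differed by 0.54 (adjusted p = 0.567). For Abcg1 the average was 0.43 (adjusted p = 0.789), and for Hmgcs1 -0.32 (adjusted p = 0.765). In the interaction, the genotype difference in hair germ minus that in bulge, Sc5d stood at 2.68 (SE 0.61, adjusted p = 0.91), Abcg1 at 2.19, Insig2 at -1.62, Msmo1 at 1.27, Lss at 1.10 and Hmgcs1 at 0.37 (adjusted p = 1 each). None passed. Other sterol genes lay higher in iTG for 23 of 48 in hair germ and 25 of 48 in bulge, and 0 passed in either. At an unadjusted p under 0.05 (limma) were 4 and 3 of them, against 1233 and 1084 of all 18193 genes. Other SREBP and LXR lipid genes lay higher for 18 of 20 in hair germ (median 0.23) and 11 of 20 in bulge (median 0.36), with 0 past the threshold and 2 and 6 at an unadjusted p under 0.05. Of these Scd2, a stearoyl-CoA desaturase gene, had the smallest p in hair germ (3.05, adjusted p = 0.401) and Scd1 in bulge (1.29, adjusted p = 0.362).

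**Figure D4:**
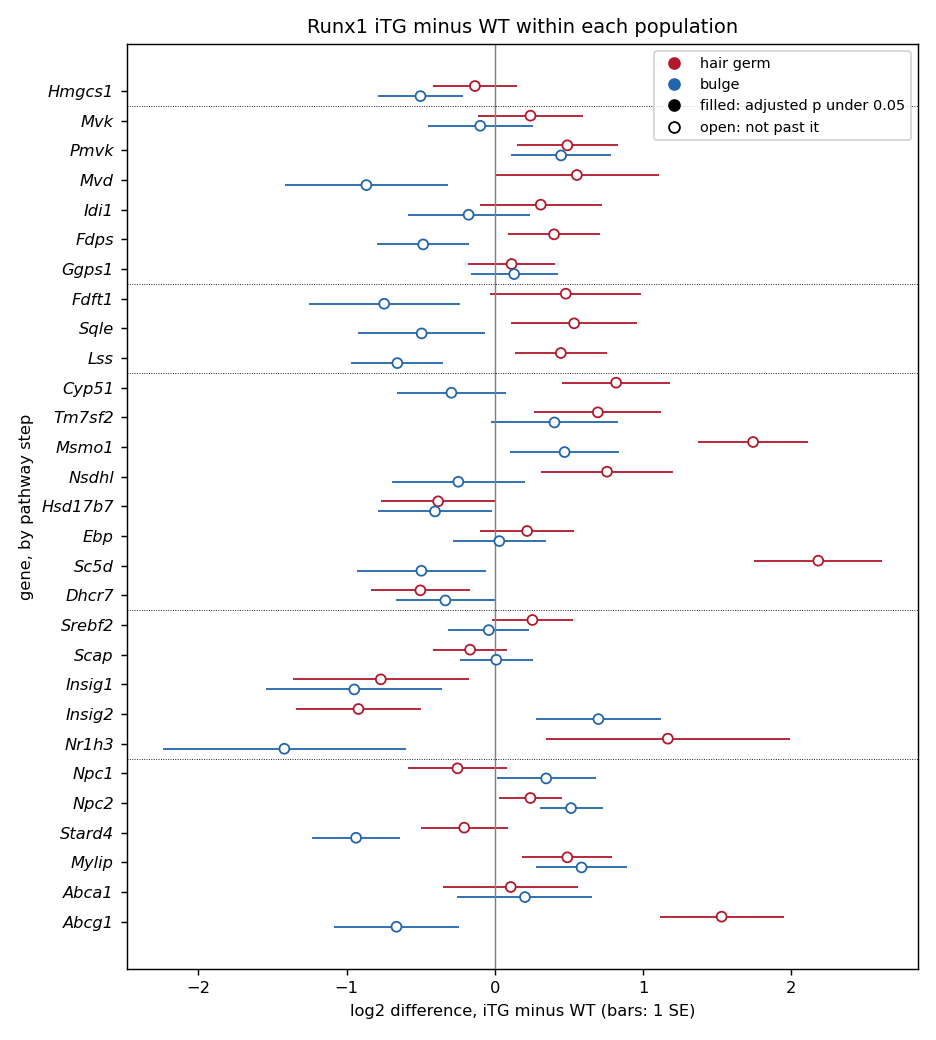
Runx1 iTG minus WT difference (log2, x axis) of 29 sterol genes in hair germ (red, upper) and bulge (blue, lower), with bars of 1 SE. All symbols are open because no gene passed, and Sc5d, Msmo1 and Abcg1 lie farthest to the right in hair germ, at 2.18, 1.74 and 1.53.

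The synthesis genes also shared their spread between replicates. In iTG hair germ 15 of 18 synthesis genes were brighter in replicate 1 than in replicate 2 (median 0.70), where 42.2% of all genes were. In WT hair germ 3 of 18 were (median -0.39), against 50.4% of all genes. In iTG bulge 16 of 18 were (median 0.61), against 50.5%, and in WT bulge 17 of 18 (median 0.41), against 51.3%. Replicate 1, male, was thus the brighter one for most synthesis genes in 3 of the 4 groups and the dimmer one in WT hair germ. Transport genes were brighter in replicate 1 for 2 of 6 in iTG hair germ, 3 of 6 in WT hair germ, 3 of 6 in iTG bulge and 2 of 6 in WT bulge. The median synthesis gene lay above its own mean by 1.26 in iTG hair germ replicate 1 and by 0.46 in replicate 2, by 0.21 and 0.60 in the WT hair germ replicates, and below it at -0.32 and -1.10 in iTG bulge and -0.29 and -0.71 in WT bulge. All 4 hair germ arrays lay above 0 and all 4 bulge arrays below it.

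**Figure D5:**
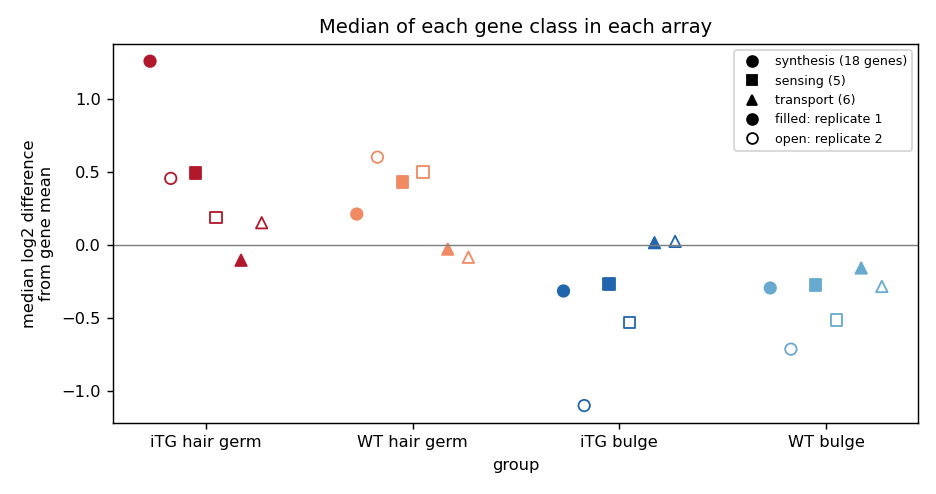
Median log2 difference from the gene mean (y axis) over the synthesis, sensing and transport genes in each array, by group, with replicate 1 filled and replicate 2 open. Synthesis medians (circles) run between 0.21 and 1.26 in hair germ and between -1.10 and -0.29 in bulge. Transport medians (triangles) run between -0.284 and 0.153.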

How the data were processed

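RNA of 8 sorted samples was hybridised to Affymetrix mouse arrays. Per the labels' protocols, cDNA was made with an Ovation Pico kit and labelled with the Encore Biotin Module (NuGEN). The authors deposited 1 linear intensity per probe set, 45101 in all. With 2% trimmed from each end these averaged 500.0 on each array. What program summarised them is not stated in the labels or the table. For this report 64 control probe sets were dropped, each array was brought to 1 common 75th percentile, signals below 2.42 (3.48% of values) were set to that floor, and log2 values were fitted. Background (31.1) was the 95th percentile of 27 bacterial control probe sets. The platform annotation gave 34945 probe sets 1 symbol each, and the brightest per gene left 18193 genes. limma 3.58.1 (R 4.3.3) fitted a mean per group, with the prior spread following intensity, and 7 contrasts. The median SE of a difference between 2 groups was 0.515 (log2), and the number of arrays limits the precision. The fit was run on simulated independent normal values with the spread that the fit itself estimated. These values held no sex difference and no spread shared between genes, so they do not test the fit for either. Values of every array are given for Abcg1, Hmgcs1, Srebf2, Insig1, every gene past the threshold in any contrast and every gene with an unadjusted p under 0.05 in a genotype contrast, and up to 3 genes of each further list were named by p. The gene list, further lists and tests were chosen with earlier results of these data known. Alternatives were quantile or no scaling, the mean of probe sets, an offset of 50, a filter on dim genes, no intensity trend, fewer samples, a replicate block and each array left out.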

Additional observations from a re-analysis of the deposited data

Results flagged for a closer look

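Abcg1 was the 1 sterol gene whose iTG arrays lay wholly above the WT arrays in one population and wholly below them in the other, as 4.6% of all genes did in either order. Its signals were 1227 and 1400.2 in iTG hair germ, against 627 and 329 in WT hair germ, and 122 and 171 in iTG bulge, against 179 and 291 in WT bulge. The difference between these genotype effects was 2.19 on the log2 scale (SE 0.59, unadjusted p = 0.00418), and it did not pass in limma's interaction over all genes (adjusted p = 1; 0.688 to 1 over 16 alternatives). The second probe set of Abcg1 lay higher in iTG in both populations, by 2.87 in hair germ and 0.72 in bulge, with an interaction of 2.15.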

How the results depend on the processing

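The numbers of sterol genes past the threshold depended on the fit, and the cause was not tested. For hair germ minus bulge averaged over both genotypes the count was 19, with 11 without an intensity trend and 12 to 18 when 1 array was left out. In iTG it was 13, with 15 without genes below background in all 4 groups and also with the replicate block, 3 without the trend, 5 with only the groups compared and 2 with day 20 arrays only, which leave 1 array in each transgenic group that is assumed to vary like the others, and 4 to 12 when 1 array was left out. In WT it was 3, with 6 without genes below background in all 4 groups, 0 without the trend, 5 with only the groups compared and 0 to 6 when 1 array was left out. With the replicate block, which here is also a block for sex, it was 8 in WT. The labels do not say that a replicate number pairs samples, and deviations of same-numbered arrays correlated at -0.027 to 0.082 over all genes, between 6 pairs of groups. For iTG minus WT in hair germ, in bulge and averaged, and for the interaction, it was 0 under every alternative run. Of the 19 averaged calls 11 passed in all 16 alternatives. Near 0, the sign turned for Abcg1 in bulge (0.030) and Hmgcs1 between genotypes in hair germ (0.036) with the mean of probe sets, and for the Hmgcs1 interaction with day 20 arrays only (-0.0217) and when 1 array was left out (-0.0186 without iTG bulge replicate 2 to 0.7531 without iTG bulge replicate 1). Of 1342 gene values under alternatives, 144 no longer passed and 41 newly passed. Signal over background limits Nr1h3 in iTG bulge.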
